A study of Mus musculus with 14 samples.

Results

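Mitosis and spindle genes were examined in RNA sequencing of mouse small intestinal organoids. The 40 genes were taken by name, and 40 of 40 were found in the table by their Ensembl identifiers and symbols. All 40 also passed the filter on low values, which left 12802 of 18781 genes to test. The study asked how loss of the autophagy gene Atg16l1 changes the response of intestinal epithelium to DNA damage caused by loss of RNase H2, the enzyme that removes ribonucleotides from DNA. Organoids are crypt-derived epithelial cultures that hold stem, dividing and differentiated cells. WT organoids (4 libraries) carried the floxed alleles ATG16L1flox/flox and RNaseH2Bflox/flox without Cre. Rnaseh2bΔIEC organoids (2 libraries) carried RNaseH2Bflox/flox and VillinCre+/-, Atg16l1ΔIEC organoids (4 libraries) ATG16L1flox/flox and VillinCre+/-, and Atg16l1/Rnaseh2bΔIEC organoids (4 libraries) both floxed genes and VillinCre+/-. The Villin promoter confines Cre to intestinal epithelium, and the WT libraries therefore differ from the others in Cre as well as in the deleted gene. No treatment and no age of the mice is given for these libraries. The study left out 2 Rnaseh2bΔIEC libraries for their read counts, so this genotype rests on 2 libraries.

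Values are on a log2 scale as deposited, relative to a normalization that is not named, and the read depth behind them is unknown. They are not divided by transcript length, so levels are compared between genotypes within a gene and not between genes. A log2 difference of -0.38 for Anln, for example, was 0.769 times the WT level. Genes were tested with limma over all 14 libraries, and a gene was called where the Benjamini-Hochberg adjusted p over 12802 genes was under 0.05. Nothing says whether libraries came from separate mice or cultures, so p-values measure the spread between these libraries, which may be technical. By their names the WT libraries were all from lane 1 and the Rnaseh2bΔIEC and Atg16l1ΔIEC libraries all from lane 2, while Atg16l1/Rnaseh2bΔIEC libraries 1 and 2 were from lane 2 and libraries 3 and 4 from lane 1. Lane and genotype can be told apart only through the Atg16l1/Rnaseh2bΔIEC libraries.

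Cells enter mitosis when cyclin A and cyclin B activate CDK1, which CDC25 phosphatases release from inhibition. Polo-like and Aurora kinases then build the spindle, kinetochore proteins attach chromosomes to it, and the spindle checkpoint holds the anaphase-promoting complex (APC/C) in check until every chromosome is attached. Kinesins, PRC1, the centralspindlin proteins RACGAP1 and KIF23, ECT2 and anillin (ANLN) then set up the midzone and divide the cell. Messages of these genes build up in G2 and M phase. Their promoters are known for the cell cycle homology region, bound by the DREAM and MYBL2-MuvB complexes, and for CCAAT boxes, bound by NF-Y. In the gut epithelium they mark dividing cells at and above the crypt base.

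Promoters show what these genes share beyond their names. RefSeq promoter sequences of build GRCm38.p6, 300 bases long and most of them before the start of a gene, were matched by symbol for 34 of the 40 genes, which have 36 promoters. Aurkb, Ccna2, Cdc25c, Incenp, Kif20a and Tpx2 are the others. The letters TTTGAA or TTTAAA of the cell cycle homology region, searched on both strands, were found in 88.9% of the 36 promoters and in 27.6% of all 32851 promoters of the table. TTTAAA reads the same on both strands, and TTTGAA alone was found in 80.6% against 17.9%. CCAAT was found on either strand in 80.6% against 37.4%, and at least 2 CCAAT in 55.6% against 11.7%. Both kinds of motif were found in 75.0% of the promoters of these genes and in 10.7% of all promoters. The following promoters are shown because each belongs to the gene with the highest mean value of its role group, Plk1 at chr7:122159185-122159484 (plus strand), Ube2c at chr2:164769679-164769978 (plus strand), Cenpa at chr5:30666636-30666935 (plus strand) and Top2a at chr11:99024140-99024439 (minus strand). Anln at chr9:22389157-22389456 (minus strand) was added after its values were seen. Capitals mark the letters of the cell cycle homology region and the CCAAT boxes, on either strand, and the sequences run 5′ to 3′ on the strand of the gene.
Plk1: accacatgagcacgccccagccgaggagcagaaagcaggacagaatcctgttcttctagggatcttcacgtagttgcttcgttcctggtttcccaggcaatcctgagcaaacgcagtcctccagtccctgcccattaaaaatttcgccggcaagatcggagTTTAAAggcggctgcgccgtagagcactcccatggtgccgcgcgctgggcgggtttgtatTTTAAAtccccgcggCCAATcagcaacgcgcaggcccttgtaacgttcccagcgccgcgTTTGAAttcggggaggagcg
Ube2c: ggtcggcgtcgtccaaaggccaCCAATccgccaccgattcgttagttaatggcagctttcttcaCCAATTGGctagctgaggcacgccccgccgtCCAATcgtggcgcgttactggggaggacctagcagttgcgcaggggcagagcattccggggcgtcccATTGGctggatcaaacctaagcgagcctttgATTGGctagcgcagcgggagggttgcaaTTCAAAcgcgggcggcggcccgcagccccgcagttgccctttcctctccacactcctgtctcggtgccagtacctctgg
Cenpa: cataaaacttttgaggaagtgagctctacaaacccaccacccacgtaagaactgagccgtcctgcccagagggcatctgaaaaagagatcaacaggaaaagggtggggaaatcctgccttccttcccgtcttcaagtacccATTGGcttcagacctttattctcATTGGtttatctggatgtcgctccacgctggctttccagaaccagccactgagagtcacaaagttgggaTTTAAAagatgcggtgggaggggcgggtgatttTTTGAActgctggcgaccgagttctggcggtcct
Top2a: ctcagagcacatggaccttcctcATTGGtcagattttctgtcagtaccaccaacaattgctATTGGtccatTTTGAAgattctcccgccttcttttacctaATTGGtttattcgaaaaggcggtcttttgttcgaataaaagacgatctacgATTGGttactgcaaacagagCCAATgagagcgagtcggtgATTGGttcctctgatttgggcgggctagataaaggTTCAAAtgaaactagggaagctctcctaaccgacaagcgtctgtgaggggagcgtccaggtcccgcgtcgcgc
Anln: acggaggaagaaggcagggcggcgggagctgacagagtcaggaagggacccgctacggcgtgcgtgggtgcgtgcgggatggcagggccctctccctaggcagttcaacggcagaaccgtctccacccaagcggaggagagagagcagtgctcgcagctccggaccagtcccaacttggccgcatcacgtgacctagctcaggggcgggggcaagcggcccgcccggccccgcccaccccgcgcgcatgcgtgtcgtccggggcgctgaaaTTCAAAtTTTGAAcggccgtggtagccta
Plk1 held 3 matches of the cell cycle homology letters and 1 CCAAT. Ube2c held 1 and 6, Cenpa 2 and 2, and Top2a 2 and 6, where CCAATTGG in Ube2c counts on both strands. Kif11 and Racgap1 also had the highest mean of their role groups. Their promoters held 1 and 1 each and are not shown. Anln held 2 matches of TTTGAA on opposite strands, 1 base apart, and no CCAAT. The cell cycle homology letters were present in 13 of the 15 matched genes that fell in Rnaseh2bΔIEC organoids, described below, and in 17 of the 19 matched genes that did not. At least 2 CCAAT were present in 5 of those 15 and in 14 of those 19, a difference that was not tested. A match of letters is a description and not a binding site.

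The deleted genes were checked first. Log2 values of Rnaseh2b were 8.47, 8.41, 8.58 and 8.70 in WT libraries 1 to 4, 7.21 and 7.15 in Rnaseh2bΔIEC, 8.71, 8.72, 8.58 and 8.48 in Atg16l1ΔIEC and 7.92, 7.68, 7.79 and 7.84 in Atg16l1/Rnaseh2bΔIEC. The gene (ENSMUSG00000021932, chr14:62292589-62372992, plus strand, GRCm38) was lowest in Rnaseh2bΔIEC, and the Atg16l1/Rnaseh2bΔIEC libraries lay between it and the other genotypes with no overlap. Values of Atg16l1 were 9.43, 9.54, 9.44 and 9.44 in WT libraries 1 to 4, 9.52 and 9.53 in Rnaseh2bΔIEC, 6.87, 7.35, 6.75 and 6.74 in Atg16l1ΔIEC and 8.37, 8.14, 8.57 and 8.47 in Atg16l1/Rnaseh2bΔIEC. Atg16l1 (ENSMUSG00000026289, chr1:87755870-87792428, plus strand) was lowest in Atg16l1ΔIEC, and the Atg16l1/Rnaseh2bΔIEC libraries again lay between. Rnaseh2b fell in Rnaseh2bΔIEC against WT (log2 difference -1.36, limma, SE 0.092, adjusted p = 3.5e-06), and in Atg16l1/Rnaseh2bΔIEC the difference from WT was -0.73 ± 0.075 (SE, adjusted p = 0.00019) by limma. Atg16l1 fell in Atg16l1ΔIEC (log2 difference -2.54, limma, SE 0.121, adjusted p = 1.6e-07), and the difference of Atg16l1/Rnaseh2bΔIEC from WT was -1.07 ± 0.121 (SE, adjusted p = 0.00032) by limma. Both deleted genes were higher in Atg16l1/Rnaseh2bΔIEC organoids than in the matching single knockout, Rnaseh2b by 0.63 ± 0.092 (SE, adjusted p = 0.00074) and Atg16l1 by 1.46 ± 0.121 (SE, adjusted p = 2e-05) in limma. The Atg16l1/Rnaseh2bΔIEC libraries thus held more of both messages than either single knockout held of its own. Comparisons with the single knockouts therefore also differ in how much of these messages remained. Protein was not measured in these libraries, and the cause was not tested.

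Libraries 1 and 2 of a genotype, and libraries 3 and 4, varied together around the mean of that genotype, with r between 0.406 and 0.864 across the 12802 genes in the 3 genotypes with 4 libraries. Genes are not independent replicates. The labels do not say what joins the libraries of a pair. In Atg16l1/Rnaseh2bΔIEC the pairs are also the 2 lanes, so pair and lane cannot be told apart there. With these pairs as a random block in limma (estimated correlation 0.645), fewer genes were called throughout, and the 2 Rnaseh2bΔIEC libraries then form 1 pair. The count of the 40 genes called in that fit is given beside each comparison. The 7 comparisons share libraries and are not independent of each other. In bulk RNA, fewer cells of a type and less RNA per cell cannot be told apart.

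Across the 14 libraries, most of these genes were lowest in Rnaseh2bΔIEC organoids. The mean over libraries was lowest in Rnaseh2bΔIEC for 33 of 40 genes, in Atg16l1ΔIEC for 4, in WT for 3 and in Atg16l1/Rnaseh2bΔIEC for 0. It was highest in WT for 16 genes and in Atg16l1ΔIEC and Atg16l1/Rnaseh2bΔIEC for 12 each. The median of the 40 genes, taken as the difference of a library from the WT mean, was -0.11 and -0.16 in the Rnaseh2bΔIEC libraries. It was 0.01, -0.04, -0.12 and -0.06 in Atg16l1ΔIEC libraries 1 to 4 and 0.08, -0.06, -0.04 and -0.04 in Atg16l1/Rnaseh2bΔIEC libraries 1 to 4. The WT libraries lay between -0.01 and 0.00. Atg16l1ΔIEC library 3 therefore overlapped the Rnaseh2bΔIEC libraries, while Atg16l1/Rnaseh2bΔIEC library 1 stood above every other library. Rnaseh2bΔIEC library 2 was the lowest of 14 for 20 genes and library 1 for 6, Atg16l1ΔIEC library 3 was the lowest for 8, and Atg16l1/Rnaseh2bΔIEC library 1 was the highest for 17. The median of all 12802 genes was 0.00 in each of the 14 libraries, which a scaling between libraries would also give. Enterocyte markers, described below, were high in the libraries where these genes were lowest. The median of 12 enterocyte markers, as the difference from the WT mean, was 0.26, 0.13, -0.20 and -0.18 in WT libraries 1 to 4, 0.88 and 0.97 in Rnaseh2bΔIEC, 0.04, 0.09, 0.63 and 0.34 in Atg16l1ΔIEC and -0.24, 0.11, -0.51 and -0.43 in Atg16l1/Rnaseh2bΔIEC. Both Rnaseh2bΔIEC libraries and Atg16l1ΔIEC library 3 were the highest, and the part of enterocytes in the shifts of the mitosis genes was not tested.

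**Figure D1:**
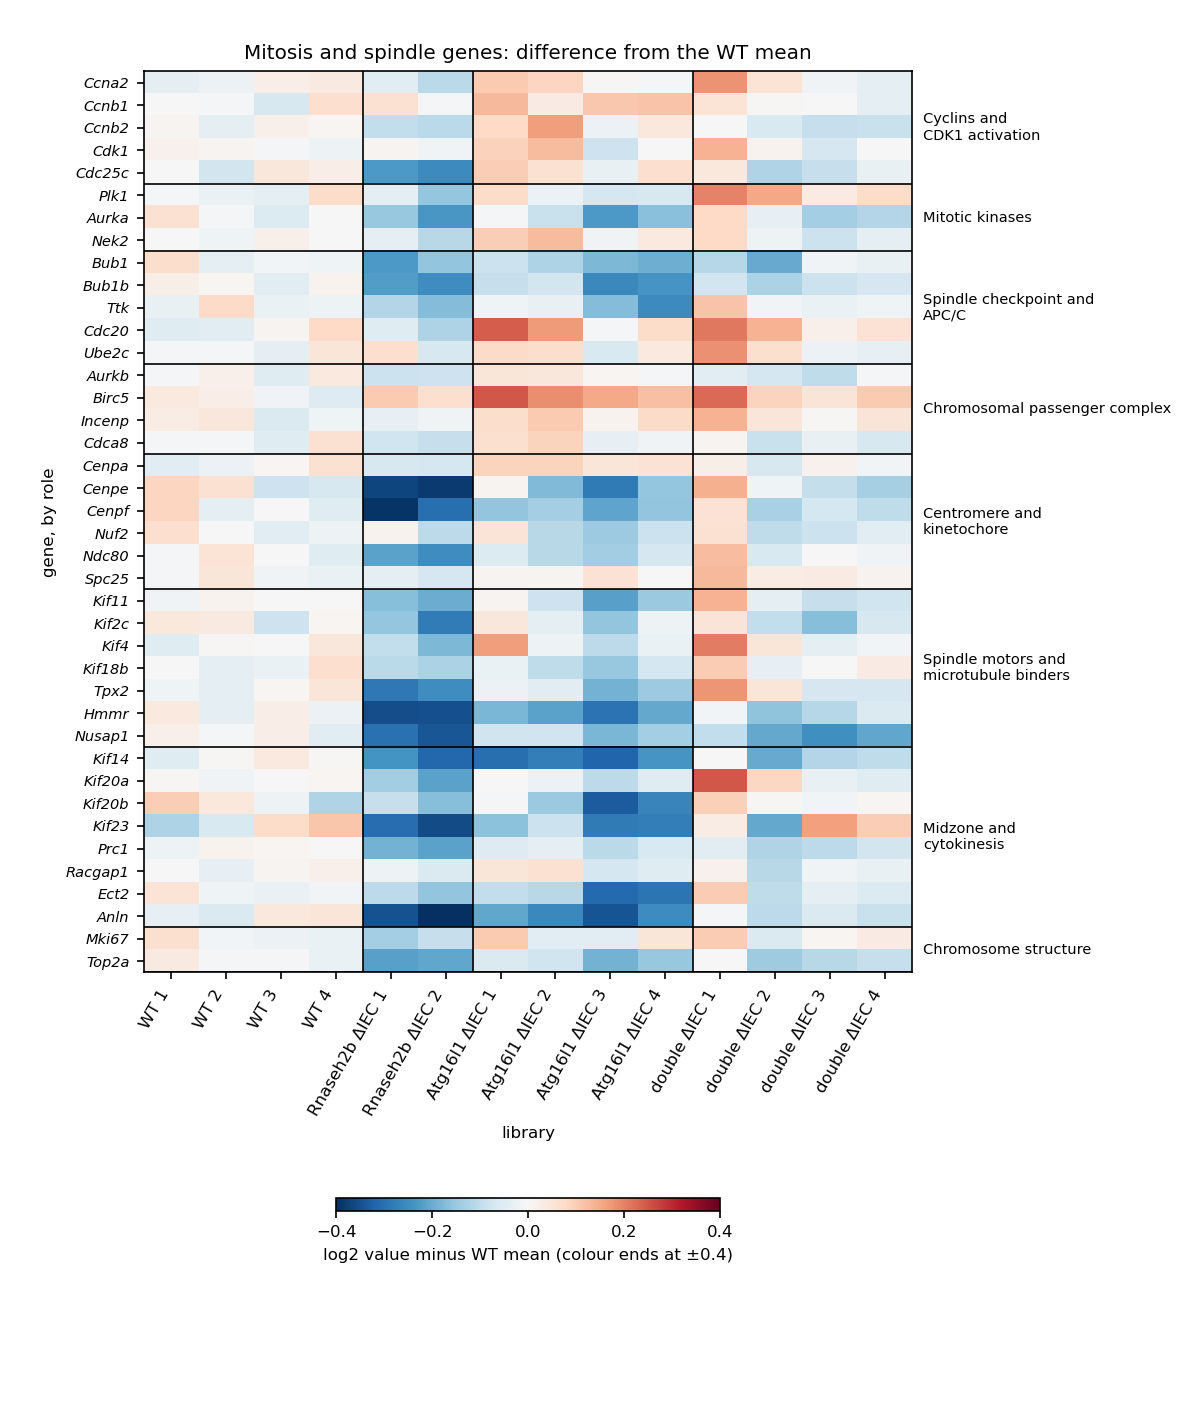
Each row is 1 of the 40 genes, grouped by role, and each column 1 of the 14 libraries, grouped by genotype (double ΔIEC stands for Atg16l1/Rnaseh2bΔIEC). Colour gives the log2 value minus the mean of the WT libraries. The Rnaseh2bΔIEC columns are blue for most rows, and Atg16l1/Rnaseh2bΔIEC library 1 is the column with the most red.

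**Figure D2:**
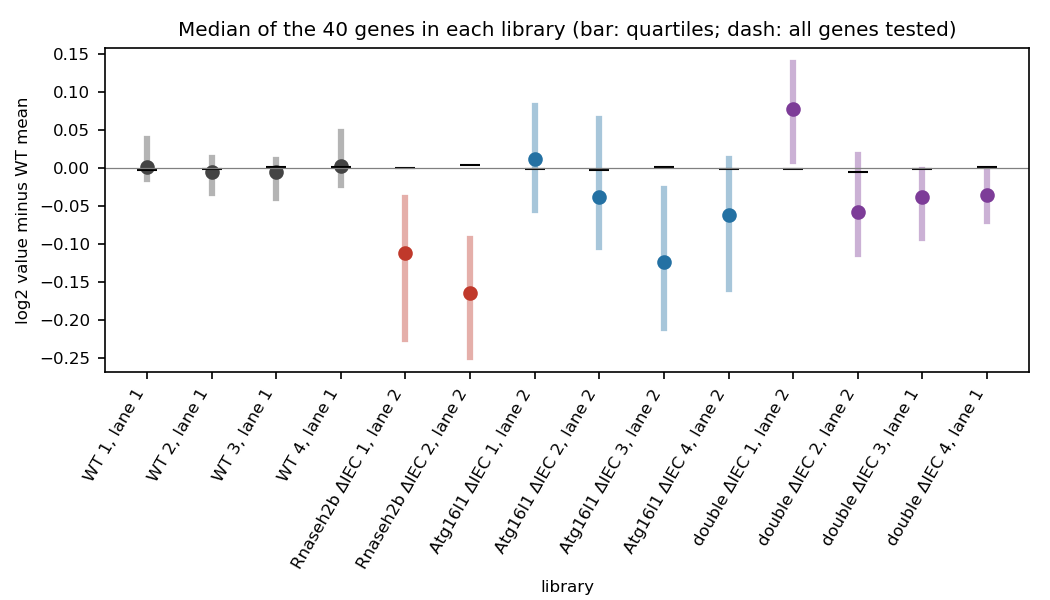
Points give the median over the 40 genes of the log2 value minus the WT mean, 1 point per library, bars the quartiles of the 40 genes and dashes the median of all genes tested. The Rnaseh2bΔIEC libraries sit at -0.11 and -0.16, and Atg16l1ΔIEC library 3 sits at -0.12 beside them.

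To see what loss of Rnaseh2b alone does to these genes, Rnaseh2bΔIEC was compared with WT. In Rnaseh2bΔIEC organoids 17 of 40 genes fell and 0 rose by limma (22 and 0 at an unadjusted p under 0.05). The 17 were Anln, Kif14, Kif23 and Prc1 of the midzone, the kinetochore genes Cenpe, Cenpf and Ndc80, and the spindle genes Hmmr, Kif11, Kif2c, Nusap1 and Tpx2. They also held the checkpoint genes Bub1 and Bub1b, the kinase Aurka, the phosphatase Cdc25c and the topoisomerase Top2a. Of all genes tested, 12.3% fell and 14.4% rose in this comparison. Both Rnaseh2bΔIEC libraries lay below all 4 WT libraries for 31 of the 40 genes and above them for 1, where 27.0% and 28.4% of all genes did so. The median log2 difference of the 40 genes was -0.14, that of all genes 0.00. The core of the CDK1 engine passed no test here. Cdk1 differed by 0.00 with a 95% confidence interval of -0.13 to 0.12, and Ccnb1 by 0.03 with an interval of -0.07 to 0.13. Enterocyte markers rose in the same comparison, 11 of 12, and 4 of 12 with library pairs as a block. With library pairs as a block, 5 of the 40 genes fell (Anln, Bub1b, Hmmr, Nusap1 and Prc1), where 2.34% of all genes did. Leaving out Rnaseh2bΔIEC library 1 or 2 leaves 1 library of that genotype, and the median was then -0.16 and -0.11. With lane as a covariate the median was -0.21 and 13 genes fell, 12 of them among the 17, against 5.56% of all genes.

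Loss of Atg16l1 alone was compared with WT in the same way, and both comparisons use the same WT libraries. In Atg16l1ΔIEC organoids 9 of 40 genes fell (Anln, Bub1, Bub1b, Cenpf, Ect2, Hmmr, Kif14, Nusap1 and Top2a) and 1, Birc5, rose. Among all genes tested 10.4% fell and 8.73% rose. The median of the 40 genes was -0.05. All 4 Atg16l1ΔIEC libraries lay below all 4 WT libraries for 11 of the 40 genes and above them for 1, against 13.1% and 11.5% of all genes. The 5 cyclin and CDK1 genes differed by 0.03 to 0.10 and none passed the test. The fit with library pairs left 1 gene that fell (Anln), against 1.88% of all genes. Without WT library 1 or Atg16l1ΔIEC library 3 the 10 calls went to 5, and without Atg16l1ΔIEC library 4 to 6. The calls over all 12802 genes went from 2450 to 2013, 1735 and 1659. With lane as a covariate the median was -0.12 and 7 genes fell, 4 of them among the 9, against 6.32% of all genes.

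Few of these genes differed between Atg16l1/Rnaseh2bΔIEC and WT organoids. By limma Nusap1 and Prc1 fell and 0 of 40 rose (6 and 2 at an unadjusted p under 0.05), while 8.01% of all genes fell and 8.10% rose. The median difference was -0.02. The libraries did not overlap for 3 genes below WT and for 1 above, where 10.9% and 11.4% of all genes did so. Mki67, the Ki-67 antigen used to stain dividing cells, differed by 0.02 with a 95% confidence interval of -0.07 to 0.11. In the fit with library pairs 0 of 40 genes were called by limma (1 at an unadjusted p under 0.05), where 0.383% of all genes fell. The 2 calls went to 1 without any one of WT libraries 1 to 4, Atg16l1ΔIEC library 4 or Atg16l1/Rnaseh2bΔIEC libraries 2 and 4. In those fits 1001 to 2074 of all 12802 genes were called, against 2063 with all libraries.

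To see whether Atg16l1 alters what follows loss of Rnaseh2b, Atg16l1/Rnaseh2bΔIEC was compared with Rnaseh2bΔIEC. Of the 40 genes, 15 rose in Atg16l1/Rnaseh2bΔIEC organoids. They were Anln, Bub1b, Cdc25c, Cenpe, Cenpf, Hmmr, Kif14, Kif18b, Kif20a, Kif23, Ndc80, Nusap1, Plk1, Prc1 and Tpx2, and 0 fell by limma (24 and 0 at an unadjusted p under 0.05). Of all genes 11.1% rose and 14.4% fell. The median was 0.14. All 4 Atg16l1/Rnaseh2bΔIEC libraries lay above both Rnaseh2bΔIEC libraries for 29 of 40 genes and below them for 0, against 24.1% and 25.8% of all genes. The Rnaseh2bΔIEC libraries here are the same ones as in the comparison with WT. The fit with library pairs left 1 gene that rose (Anln, and 11 at an unadjusted p under 0.05), against 1.51% of all genes. With Rnaseh2bΔIEC library 1 or 2 left out, which leaves 1 library of that genotype, the median was 0.15 and 0.12. When the fit held only lane 2, where Atg16l1/Rnaseh2bΔIEC has libraries 1 and 2, 15 genes rose, 9 of them among the 15 of all libraries, against 12.5% of all genes.

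Against Atg16l1ΔIEC, Atg16l1/Rnaseh2bΔIEC organoids had 7 genes that rose (Anln, Ect2, Hmmr, Kif14, Kif20b, Kif23 and Plk1) and 1 that fell (Ccnb2, a B-type cyclin). Of the 7, 5 belong to the midzone and cytokinesis group. Among all genes 12.6% rose and 12.5% fell, and the median of the 40 was 0.03. The libraries did not overlap for 4 genes above and 1 below, against 12.1% and 11.8% of all genes. In the fit with library pairs limma called 0 genes (5 at an unadjusted p under 0.05), where 1.91% of all genes rose. With lane as a covariate the median was 0.06, 10 genes rose and 0 fell by limma (15 and 3 at an unadjusted p under 0.05), against 15.6% of all genes that rose, and Ccnb2 and Kif23 were not among the 10. Without Atg16l1ΔIEC library 3 or 4 the calls went to 3, and those over all 12802 genes from 3218 to 1827 and 1832. Without Atg16l1/Rnaseh2bΔIEC library 1, the highest library of the set, 3 genes rose, 3 fell and the median was -0.0004. In that fit 1319 of all genes rose and 1255 fell.

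Rnaseh2bΔIEC and Atg16l1ΔIEC were both sequenced in lane 2. Ccnb2, Cdc25c, Cenpa, Nusap1 and Prc1 were lower in Rnaseh2bΔIEC, 5 of 40, and 0 were higher by limma (18 and 0 at an unadjusted p under 0.05), where 2.47% of all genes were lower and 4.34% higher. The median was -0.11. Both Rnaseh2bΔIEC libraries lay below all Atg16l1ΔIEC libraries for 23 of the 40 genes and above them for 0, against 17.4% and 20.4% of all genes. Limma called 0 of 40 in the fit with library pairs (6 at an unadjusted p under 0.05), where 0.0625% of all genes were lower. Without Rnaseh2bΔIEC library 1 or 2, which leaves 1 library of that genotype, the median was -0.115 and -0.096. With lane as a covariate 8 genes were lower, the 5 and Cdc20, Cenpf and Tpx2, against 4.98% of all genes. In a fit of lane 2 alone 3 were lower (Cdc25c, Cenpf and Nusap1), where 298 of all 12802 genes were. The count was also 3 without WT library 2 or 3, Atg16l1ΔIEC library 1, 2 or 4, or Atg16l1/Rnaseh2bΔIEC library 4. In those fits 161 to 291 of all genes were lower.

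The interaction of the 2 deletions tests whether the change from Atg16l1ΔIEC to Atg16l1/Rnaseh2bΔIEC equals the change from WT to Rnaseh2bΔIEC, that is, whether Rnaseh2b loss acts alike with Atg16l1 deleted and present. By limma 21 of the 40 genes had a positive interaction and 0 a negative one (22 and 1 at an unadjusted p under 0.05). Over all genes 35.1% had an interaction, 2180 positive and 2319 (18.1%) negative of 12802. The median interaction of the 40 genes was 0.21. Atg16l1/Rnaseh2bΔIEC organoids held more Rnaseh2b message than Rnaseh2bΔIEC organoids, as given above, and the part of this in the interaction was not tested. Cell type markers also had interactions, positive for 8 of 8 goblet, 8 of 10 stem and 7 of 9 enteroendocrine markers and negative for 10 of 12 enterocyte markers. The counts were 6, 7, 3 and 8 with library pairs as a block, and their part in the interaction of the mitosis genes was not tested. The 21 genes held 7 of the 8 midzone and cytokinesis genes, 5 of the 7 spindle motors and microtubule binders, 3 of the 6 kinetochore genes, 3 of the 5 checkpoint genes, both Aurka and Plk1, and Top2a. They held 0 of the 5 cyclin and CDK1 genes (0 at an unadjusted p under 0.05) and 0 of the 4 chromosomal passenger genes (1, negative). In the fit with pairs as a block 7 genes were called, all positive (Anln, Bub1b, Cenpf, Hmmr, Kif14, Kif23 and Tpx2). Of all genes 12.1% were called in that fit, 679 positive and 874 negative of 12802. Without Rnaseh2bΔIEC library 2 the 21 calls went to 13, and with lane as a covariate to 12, all 12 of them among the 21, against 20.2% of all genes in either direction. When each pair of libraries was averaged to 1 value, 0 of the 40 genes were called by limma in any of the 7 comparisons. That fit called at most 2 of all 12802 genes in a comparison, so its 0 says nothing about these genes in particular, and for 14 of the 40 it gave an unadjusted p under 0.05 for the interaction.

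**Figure D3:**
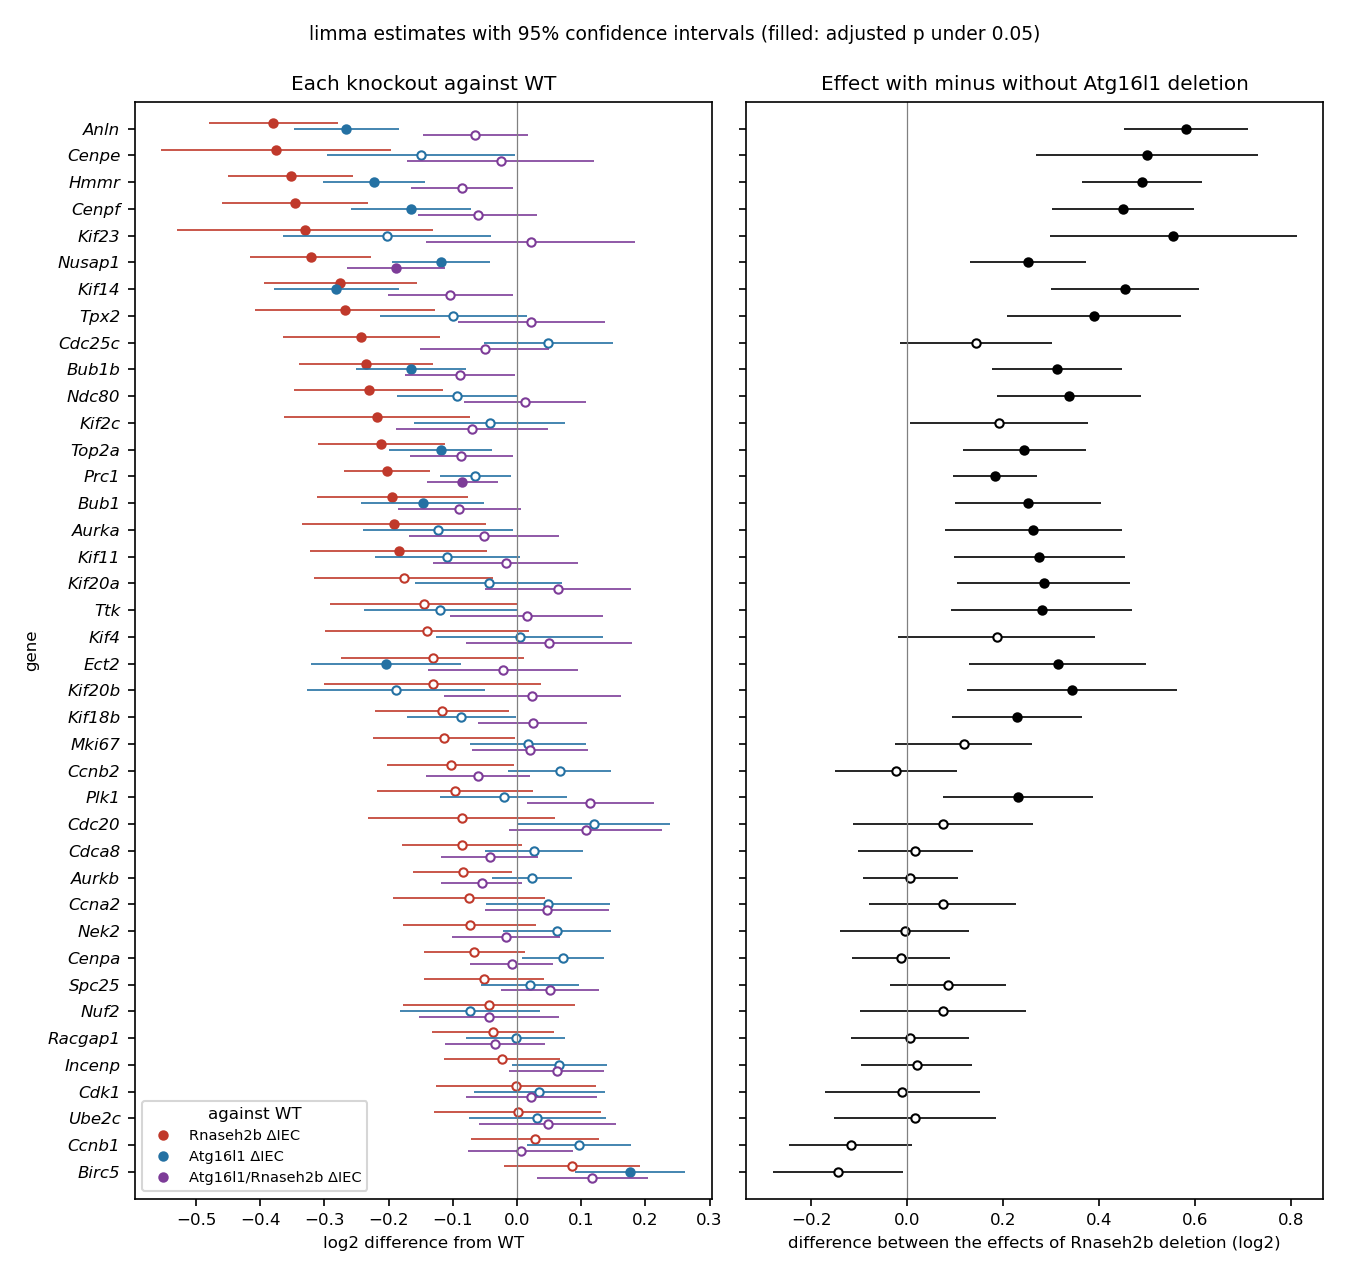
Left, log2 differences of the 40 genes between each knockout and WT, and right, the interaction of the 2 deletions. Bars are 95% confidence intervals and filled points have an adjusted p under 0.05. On the right 21 points are filled and all 21 lie above 0.

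Among the cyclins and CDK1 activators, 1 of 5 genes fell in Rnaseh2bΔIEC against WT, the activator phosphatase Cdc25c, a share near the 12.3% of all genes. Limma called 0 of the 5 with library pairs as a block (1 lower at an unadjusted p under 0.05), where 2.34% of all genes fell. Ccna2 (ENSMUSG00000027715, chr3:36564865-36572150, minus strand) encodes the cyclin A of somatic cells. Log2 values of Ccna2 were 12.17, 12.18, 12.23 and 12.24 in WT libraries 1 to 4, 12.16 and 12.10 in Rnaseh2bΔIEC, 12.31, 12.29, 12.21 and 12.20 in Atg16l1ΔIEC and 12.38, 12.26, 12.19 and 12.17 in Atg16l1/Rnaseh2bΔIEC. Both Rnaseh2bΔIEC libraries lay just below all WT libraries, and Atg16l1/Rnaseh2bΔIEC library 1 was the highest. The Rnaseh2bΔIEC difference from WT was -0.07 ± 0.055 (SE, adjusted p = 0.34) in limma and did not pass the test. Cdc25c values were 8.81, 8.74, 8.86 and 8.84 in WT libraries 1 to 4, 8.58 and 8.56 in Rnaseh2bΔIEC, 8.91, 8.87, 8.78 and 8.88 in Atg16l1ΔIEC and 8.86, 8.69, 8.72 and 8.78 in Atg16l1/Rnaseh2bΔIEC. Both Rnaseh2bΔIEC libraries were below every other library. Cdc25c fell in Rnaseh2bΔIEC against WT (log2 difference -0.24, limma, SE 0.057, adjusted p = 0.008). It was also lower in Rnaseh2bΔIEC than in Atg16l1ΔIEC, with a difference of -0.29 ± 0.057 (SE, adjusted p = 0.01), and Atg16l1/Rnaseh2bΔIEC exceeded Rnaseh2bΔIEC by 0.19 ± 0.057 (SE, adjusted p = 0.026), both in limma. Ccnb2 values were 10.87, 10.82, 10.88 and 10.87 in WT libraries 1 to 4, 10.76 and 10.75 in Rnaseh2bΔIEC, 10.94, 11.03, 10.84 and 10.91 in Atg16l1ΔIEC and 10.86, 10.80, 10.77 and 10.77 in Atg16l1/Rnaseh2bΔIEC. Ccnb2 (ENSMUSG00000032218, chr9:70407692-70421547, minus strand) encodes a B-type cyclin, and its values were highest in Atg16l1ΔIEC on average, where they overlapped WT. The Rnaseh2bΔIEC difference from Atg16l1ΔIEC was -0.17 ± 0.046 (SE, adjusted p = 0.043) and that of Atg16l1/Rnaseh2bΔIEC from Atg16l1ΔIEC -0.13 ± 0.037 (SE, adjusted p = 0.027), both by limma. Cdk1, the kinase itself, did not differ by more than 0.04 in size in any of the 6 comparisons of genotypes, and Ccnb1, the other B-type cyclin, did not pass the test in any of them.

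The mitotic kinases build and mature the spindle poles. Against WT 1 of 3 fell in Rnaseh2bΔIEC (Aurka), where 12.3% of all genes fell. With library pairs as a block limma called 0 of the 3 (0 at an unadjusted p under 0.05), against 2.34% of all genes. Plk1 (ENSMUSG00000030867, chr7:122159439-122169873, plus strand) encodes polo-like kinase 1. Log2 values of Plk1 were 10.77, 10.75, 10.74 and 10.85 in WT libraries 1 to 4, 10.74 and 10.62 in Rnaseh2bΔIEC, 10.85, 10.75, 10.71 and 10.71 in Atg16l1ΔIEC and 10.97, 10.93, 10.81 and 10.85 in Atg16l1/Rnaseh2bΔIEC. Atg16l1/Rnaseh2bΔIEC libraries 1 and 2 were the highest and Rnaseh2bΔIEC library 2 the lowest, and Rnaseh2bΔIEC overlapped WT. Plk1 in Atg16l1/Rnaseh2bΔIEC exceeded Rnaseh2bΔIEC by 0.21 ± 0.056 (SE, adjusted p = 0.016) and Atg16l1ΔIEC by 0.13 ± 0.046 (SE, adjusted p = 0.047) in limma, while against WT the difference of Atg16l1/Rnaseh2bΔIEC was 0.11 (95% confidence interval 0.02 to 0.21). Aurka, the centrosomal Aurora kinase, fell in Rnaseh2bΔIEC with a difference of -0.19 ± 0.066 (SE, adjusted p = 0.048), and its interaction was 0.26 ± 0.086 (SE, adjusted p = 0.03) (limma). Nek2, a centrosome kinase, differed from WT by -0.07 in Rnaseh2bΔIEC, 0.06 in Atg16l1ΔIEC and -0.02 in Atg16l1/Rnaseh2bΔIEC and passed no test.

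Within the checkpoint and APC/C genes Bub1 and Bub1b fell in both single knockouts, while the APC/C activator and its ubiquitin-conjugating enzyme passed no test. Of all genes 12.3% fell in Rnaseh2bΔIEC and 10.4% in Atg16l1ΔIEC. Of the 5 genes 1 fell in Rnaseh2bΔIEC with library pairs as a block (Bub1b), against 2.34% of all genes. In that fit limma called 0 in Atg16l1ΔIEC (2 lower at an unadjusted p under 0.05), where 1.88% of all genes fell. Ube2c (ENSMUSG00000001403, chr2:164769898-164778822, plus strand) encodes that enzyme. Log2 values of Ube2c were 11.62, 11.62, 11.58 and 11.67 in WT libraries 1 to 4, 11.69 and 11.56 in Rnaseh2bΔIEC, 11.70, 11.70, 11.56 and 11.66 in Atg16l1ΔIEC and 11.81, 11.69, 11.60 and 11.59 in Atg16l1/Rnaseh2bΔIEC. All 4 genotypes overlapped, and Atg16l1/Rnaseh2bΔIEC library 1 was the highest. Ube2c differed from WT by 0.00 in Rnaseh2bΔIEC (95% confidence interval -0.13 to 0.13). Bub1b, which encodes the checkpoint protein BUBR1, fell in Rnaseh2bΔIEC (log2 difference -0.24, limma, SE 0.049, adjusted p = 0.0041) and in Atg16l1ΔIEC (log2 difference -0.17, SE 0.040, adjusted p = 0.012). Atg16l1/Rnaseh2bΔIEC exceeded Rnaseh2bΔIEC by 0.15 ± 0.049 (SE, adjusted p = 0.042) (limma). Bub1, its partner kinase, fell in Rnaseh2bΔIEC (-0.19) and Atg16l1ΔIEC (-0.15). Ttk, the checkpoint kinase MPS1, differed by -0.15 and -0.12 and passed the test for the interaction alone (0.28). Cdc20, which activates the APC/C, differed from WT by -0.09 in Rnaseh2bΔIEC, 0.12 in Atg16l1ΔIEC and 0.11 in Atg16l1/Rnaseh2bΔIEC and passed no test.

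The chromosomal passenger complex, which corrects attachments at centromeres and later sits at the midzone, had 1 of 4 genes past the test against WT, Birc5 in Atg16l1ΔIEC, where 8.73% of all genes rose. Birc5 was not called with lane as a covariate, nor with library pairs as a block. In the block fit limma called 0 of the 4 (1 higher at an unadjusted p under 0.05), where 143 of all 12802 genes rose. Incenp (ENSMUSG00000024660, chr19:9872296-9899551, minus strand) encodes its scaffold. Log2 values of Incenp were 11.13, 11.14, 11.04 and 11.08 in WT libraries 1 to 4, 11.07 and 11.08 in Rnaseh2bΔIEC, 11.17, 11.20, 11.11 and 11.17 in Atg16l1ΔIEC and 11.24, 11.15, 11.10 and 11.15 in Atg16l1/Rnaseh2bΔIEC. WT overlapped each knockout, while both Rnaseh2bΔIEC libraries lay below all Atg16l1ΔIEC and all Atg16l1/Rnaseh2bΔIEC libraries. Incenp passed no test, and its differences from WT were -0.02, 0.07 and 0.06 in Rnaseh2bΔIEC, Atg16l1ΔIEC and Atg16l1/Rnaseh2bΔIEC. Birc5 encodes survivin and was the 1 member of the 40 that rose in any comparison with WT. Its mean was 10.88 ± 0.04 in WT, 10.96 ± 0.03 in Rnaseh2bΔIEC, 11.05 ± 0.05 in Atg16l1ΔIEC and 10.99 ± 0.08 in Atg16l1/Rnaseh2bΔIEC (SD, n = 4, 2, 4 and 4 libraries). Every Atg16l1ΔIEC library lay above every WT library, and the other knockouts lay above WT as well. Birc5 (ENSMUSG00000017716, chr11:117849251-117855743, plus strand) rose in Atg16l1ΔIEC by 0.18 ± 0.040 (SE, adjusted p = 0.0089) in limma, while the differences in Rnaseh2bΔIEC and Atg16l1/Rnaseh2bΔIEC, 0.09 and 0.12, did not pass. Aurkb, the kinase of the complex, and Cdca8, which encodes borealin, differed from WT by -0.08 and -0.09 in Rnaseh2bΔIEC.

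Of the 6 centromere and kinetochore genes, 3 fell in Rnaseh2bΔIEC against WT, where 12.3% of all genes fell. Limma called 0 of the 6 with library pairs as a block (3 lower at an unadjusted p under 0.05), where 2.34% of all genes fell. Cenpa (ENSMUSG00000029177, chr5:30666777-30674830, plus strand) encodes the centromeric histone. Log2 values of Cenpa were 10.66, 10.69, 10.72 and 10.77 in WT libraries 1 to 4, 10.64 and 10.64 in Rnaseh2bΔIEC, 10.80, 10.80, 10.76 and 10.77 in Atg16l1ΔIEC and 10.73, 10.64, 10.73 and 10.70 in Atg16l1/Rnaseh2bΔIEC. Both Rnaseh2bΔIEC libraries were at 10.64, just below WT, and Atg16l1ΔIEC was highest on average and overlapped WT. Cenpa was lower in Rnaseh2bΔIEC than in Atg16l1ΔIEC with a difference of -0.14 ± 0.036 (SE, adjusted p = 0.039) in limma, and it passed no test against WT. Cenpe (ENSMUSG00000045328, chr3:135212537-135273611, plus strand) encodes the kinesin CENP-E, which moves chromosomes to the spindle equator. Its values were 10.90, 10.87, 10.73 and 10.75 in WT libraries 1 to 4, 10.44 and 10.43 in Rnaseh2bΔIEC, 10.82, 10.63, 10.53 and 10.66 in Atg16l1ΔIEC and 10.95, 10.79, 10.71 and 10.68 in Atg16l1/Rnaseh2bΔIEC. Both Rnaseh2bΔIEC libraries were below every other library, and Atg16l1ΔIEC overlapped WT. Cenpe fell in Rnaseh2bΔIEC (log2 difference -0.38, limma, SE 0.083, adjusted p = 0.006), and Atg16l1/Rnaseh2bΔIEC exceeded Rnaseh2bΔIEC by 0.35 ± 0.083 (SE, adjusted p = 0.0092). Its interaction was 0.50 ± 0.107 (SE, adjusted p = 0.0035) in limma. Cenpf, which encodes a large kinetochore protein, fell in Rnaseh2bΔIEC (-0.35) and Atg16l1ΔIEC (-0.17). Ndc80, the microtubule-binding arm of the outer kinetochore, fell in Rnaseh2bΔIEC (-0.23), while its complex partners Nuf2 and Spc25 differed there by -0.04 and -0.05 and passed no test.

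Of the spindle motors and microtubule binders, 5 of 7 fell in Rnaseh2bΔIEC against WT, and 2 (Hmmr and Nusap1) with library pairs as a block, where 12.3% and 2.34% of all genes fell. Kif11 (ENSMUSG00000012443, chr19:37376403-37421859, plus strand) encodes the motor that pushes spindle poles apart. Log2 values of Kif11 were 11.79, 11.81, 11.80 and 11.80 in WT libraries 1 to 4, 11.63 and 11.60 in Rnaseh2bΔIEC, 11.81, 11.72, 11.58 and 11.65 in Atg16l1ΔIEC and 11.94, 11.76, 11.71 and 11.72 in Atg16l1/Rnaseh2bΔIEC. WT was tight at 11.79 to 11.81, both Rnaseh2bΔIEC libraries were lower, Atg16l1ΔIEC overlapped both and Atg16l1/Rnaseh2bΔIEC library 1 was the highest. Kif11 fell in Rnaseh2bΔIEC (log2 difference -0.18, limma, SE 0.064, adjusted p = 0.049). Hmmr (ENSMUSG00000020330, chr11:40701395-40733422, minus strand) encodes a spindle pole protein that works with TPX2. Its values were 10.91, 10.83, 10.90 and 10.85 in WT libraries 1 to 4, 10.52 and 10.52 in Rnaseh2bΔIEC, 10.69, 10.66, 10.58 and 10.67 in Atg16l1ΔIEC and 10.86, 10.71, 10.76 and 10.82 in Atg16l1/Rnaseh2bΔIEC. Both Rnaseh2bΔIEC libraries were the lowest, all Atg16l1ΔIEC libraries were also below WT, and Atg16l1/Rnaseh2bΔIEC overlapped WT. Hmmr fell in Rnaseh2bΔIEC (log2 difference -0.35, limma, SE 0.045, adjusted p = 0.00021) and in Atg16l1ΔIEC (log2 difference -0.22, SE 0.037, adjusted p = 0.0013). Atg16l1/Rnaseh2bΔIEC exceeded Rnaseh2bΔIEC by 0.27 ± 0.045 (SE, adjusted p = 0.0015) and Atg16l1ΔIEC by 0.14 ± 0.037 (SE, adjusted p = 0.017) in limma.

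Nusap1 (ENSMUSG00000027306, chr2:119618298-119651244, plus strand), which encodes a protein that bundles spindle microtubules near chromosomes, was lower in every knockout. Log2 values of Nusap1 were 11.19, 11.16, 11.19 and 11.13 in WT libraries 1 to 4, 10.87 and 10.82 in Rnaseh2bΔIEC, 11.09, 11.09, 10.98 and 11.03 in Atg16l1ΔIEC and 11.07, 10.96, 10.92 and 10.96 in Atg16l1/Rnaseh2bΔIEC. No knockout library reached the WT range, and the 2 Rnaseh2bΔIEC libraries were the lowest of all. Nusap1 fell in Rnaseh2bΔIEC (log2 difference -0.32, limma, SE 0.044, adjusted p = 0.00032), in Atg16l1ΔIEC (log2 difference -0.12, SE 0.036, adjusted p = 0.033) and in Atg16l1/Rnaseh2bΔIEC (log2 difference -0.19, SE 0.036, adjusted p = 0.0056). Rnaseh2bΔIEC was also lower than Atg16l1ΔIEC, with a difference of -0.20 ± 0.044 (SE, adjusted p = 0.016) in limma. Tpx2, which activates Aurora A on the spindle, fell in Rnaseh2bΔIEC (-0.27), and so did Kif2c (-0.22), a kinesin that takes microtubules apart at centromeres. The chromosome kinesin Kif4 and the plus-end kinesin Kif18b differed by -0.14 and -0.12 in Rnaseh2bΔIEC and did not pass, and Kif18b rose in Atg16l1/Rnaseh2bΔIEC against Rnaseh2bΔIEC by 0.14.

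Midzone and cytokinesis genes held the 2 largest interactions of the 40, those of Anln and Kif23. Of the 8 genes 4 fell in Rnaseh2bΔIEC and 3 in Atg16l1ΔIEC against WT, where 12.3% and 10.4% of all genes fell. In the fit with the pair block 2 fell in Rnaseh2bΔIEC (Anln and Prc1) and 1 in Atg16l1ΔIEC (Anln), against 2.34% and 1.88%. Anln (ENSMUSG00000036777, chr9:22332012-22389188, minus strand) encodes anillin, the scaffold of the contractile ring. Log2 values of Anln were 10.52, 10.50, 10.60 and 10.61 in WT libraries 1 to 4, 10.21 and 10.15 in Rnaseh2bΔIEC, 10.35, 10.30, 10.21 and 10.31 in Atg16l1ΔIEC and 10.55, 10.45, 10.50 and 10.47 in Atg16l1/Rnaseh2bΔIEC. All Rnaseh2bΔIEC and all Atg16l1ΔIEC libraries were below all WT libraries, and Atg16l1/Rnaseh2bΔIEC overlapped WT. Anln fell in Rnaseh2bΔIEC (log2 difference -0.38, limma, SE 0.046, adjusted p = 0.00017) and in Atg16l1ΔIEC (log2 difference -0.27, SE 0.038, adjusted p = 5e-04). Atg16l1/Rnaseh2bΔIEC exceeded Rnaseh2bΔIEC by 0.31 ± 0.046 (SE, adjusted p = 0.00075) and Atg16l1ΔIEC by 0.20 ± 0.038 (SE, adjusted p = 0.003) in limma. Its interaction, 0.58 ± 0.060 (SE, adjusted p = 3.5e-05) in limma, was the larger. Kif23 (ENSMUSG00000032254, chr9:61915905-61946774, minus strand) encodes the motor of centralspindlin. Its values were 10.86, 10.92, 11.06 and 11.09 in WT libraries 1 to 4, 10.68 and 10.63 in Rnaseh2bΔIEC, 10.82, 10.90, 10.70 and 10.71 in Atg16l1ΔIEC and 11.01, 10.78, 11.15 and 11.08 in Atg16l1/Rnaseh2bΔIEC. Both Rnaseh2bΔIEC libraries were below every other library, Atg16l1ΔIEC libraries 3 and 4 came next, and Atg16l1/Rnaseh2bΔIEC ranged from within Atg16l1ΔIEC to above WT. Kif23 fell in Rnaseh2bΔIEC (log2 difference -0.33, limma, SE 0.092, adjusted p = 0.019), and Atg16l1/Rnaseh2bΔIEC exceeded Rnaseh2bΔIEC by 0.35 ± 0.092 (SE, adjusted p = 0.015) and Atg16l1ΔIEC by 0.22 ± 0.075 (SE, adjusted p = 0.045). The interaction for Kif23 was 0.55 ± 0.119 (SE, adjusted p = 0.0035) in limma.

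Kif14 (ENSMUSG00000041498, chr1:136466343-136531511, plus strand), a kinesin of the midbody, was lower in both single knockouts. Log2 values of Kif14 were 8.97, 9.03, 9.06 and 9.03 in WT libraries 1 to 4, 8.79 and 8.71 in Rnaseh2bΔIEC, 8.72, 8.75, 8.71 and 8.79 in Atg16l1ΔIEC and 9.02, 8.82, 8.91 and 8.92 in Atg16l1/Rnaseh2bΔIEC. The Rnaseh2bΔIEC and Atg16l1ΔIEC libraries overlapped each other and lay below all WT libraries, and Atg16l1/Rnaseh2bΔIEC library 1 reached the WT range. Kif14 fell in Rnaseh2bΔIEC (log2 difference -0.28, limma, SE 0.055, adjusted p = 0.0035) and in Atg16l1ΔIEC (log2 difference -0.28, SE 0.045, adjusted p = 0.0011). Prc1 (ENSMUSG00000038943, chr7:80294450-80316259, plus strand) encodes the bundler of midzone microtubules. Its values were 11.34, 11.37, 11.36 and 11.36 in WT libraries 1 to 4, 11.17 and 11.14 in Rnaseh2bΔIEC, 11.31, 11.32, 11.25 and 11.30 in Atg16l1ΔIEC and 11.31, 11.24, 11.25 and 11.28 in Atg16l1/Rnaseh2bΔIEC. WT spanned 11.34 to 11.37, and every knockout library was below it. Prc1 fell in Rnaseh2bΔIEC (log2 difference -0.20, limma, SE 0.031, adjusted p = 0.00072) and in Atg16l1/Rnaseh2bΔIEC (log2 difference -0.09, SE 0.026, adjusted p = 0.039). Kif20b (ENSMUSG00000024795, chr19:34922361-34975745, plus strand) encodes another kinesin of late division. Its values were 10.61, 10.55, 10.49 and 10.39 in WT libraries 1 to 4, 10.42 and 10.34 in Rnaseh2bΔIEC, 10.50, 10.36, 10.18 and 10.25 in Atg16l1ΔIEC and 10.61, 10.52, 10.50 and 10.52 in Atg16l1/Rnaseh2bΔIEC. WT and Rnaseh2bΔIEC overlapped, Atg16l1ΔIEC libraries 3 and 4 were the lowest, and Atg16l1/Rnaseh2bΔIEC overlapped WT. Kif20b in Atg16l1/Rnaseh2bΔIEC exceeded Atg16l1ΔIEC by 0.21 ± 0.064 (SE, adjusted p = 0.029) in limma.

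Racgap1 (ENSMUSG00000023015, chr15:99620496-99651656, minus strand), the partner of Kif23 in centralspindlin, passed no test. Log2 values of Racgap1 were 11.33, 11.30, 11.34 and 11.35 in WT libraries 1 to 4, 11.31 and 11.27 in Rnaseh2bΔIEC, 11.38, 11.39, 11.26 and 11.28 in Atg16l1ΔIEC and 11.34, 11.22, 11.31 and 11.30 in Atg16l1/Rnaseh2bΔIEC. All genotypes overlapped. Its differences from WT were -0.04 in Rnaseh2bΔIEC (95% confidence interval -0.13 to 0.06), 0.00 in Atg16l1ΔIEC and -0.03 in Atg16l1/Rnaseh2bΔIEC. Ect2, the exchange factor that centralspindlin recruits to start the furrow, fell in Atg16l1ΔIEC (-0.20) and differed by -0.13 in Rnaseh2bΔIEC. Kif20a, the kinesin that brings the passenger complex to the midzone, differed by -0.18 in Rnaseh2bΔIEC without passing and rose in Atg16l1/Rnaseh2bΔIEC against Rnaseh2bΔIEC by 0.24.

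Mki67 and Top2a are both used as markers of dividing cells. Neither was called against WT with library pairs as a block. Log2 values of Mki67 were 13.14, 13.06, 13.05 and 13.05 in WT libraries 1 to 4, 12.94 and 12.98 in Rnaseh2bΔIEC, 13.18, 13.03, 13.03 and 13.12 in Atg16l1ΔIEC and 13.18, 13.02, 13.08 and 13.11 in Atg16l1/Rnaseh2bΔIEC. WT library 1 stood above the other WT libraries, Rnaseh2bΔIEC lay just below all WT libraries, and Atg16l1ΔIEC and Atg16l1/Rnaseh2bΔIEC overlapped WT. Mki67 (ENSMUSG00000031004, chr7:135689784-135716361, minus strand) encodes the Ki-67 protein and differed from WT by -0.11 in Rnaseh2bΔIEC (95% confidence interval -0.22 to 0.00), 0.02 in Atg16l1ΔIEC and 0.02 in Atg16l1/Rnaseh2bΔIEC, and it passed no test. Top2a values were 13.57, 13.53, 13.53 and 13.51 in WT libraries 1 to 4, 13.32 and 13.33 in Rnaseh2bΔIEC, 13.48, 13.46, 13.35 and 13.38 in Atg16l1ΔIEC and 13.53, 13.39, 13.42 and 13.44 in Atg16l1/Rnaseh2bΔIEC. Every Rnaseh2bΔIEC and Atg16l1ΔIEC library was below every WT library, and Atg16l1/Rnaseh2bΔIEC library 1 reached the WT range. Top2a (ENSMUSG00000020914, chr11:98992943-99024189, minus strand), which encodes the topoisomerase that untangles chromosomes, fell in Rnaseh2bΔIEC (log2 difference -0.21, limma, SE 0.046, adjusted p = 0.0053) and in Atg16l1ΔIEC (log2 difference -0.12, SE 0.037, adjusted p = 0.04).

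**Figure D4:**
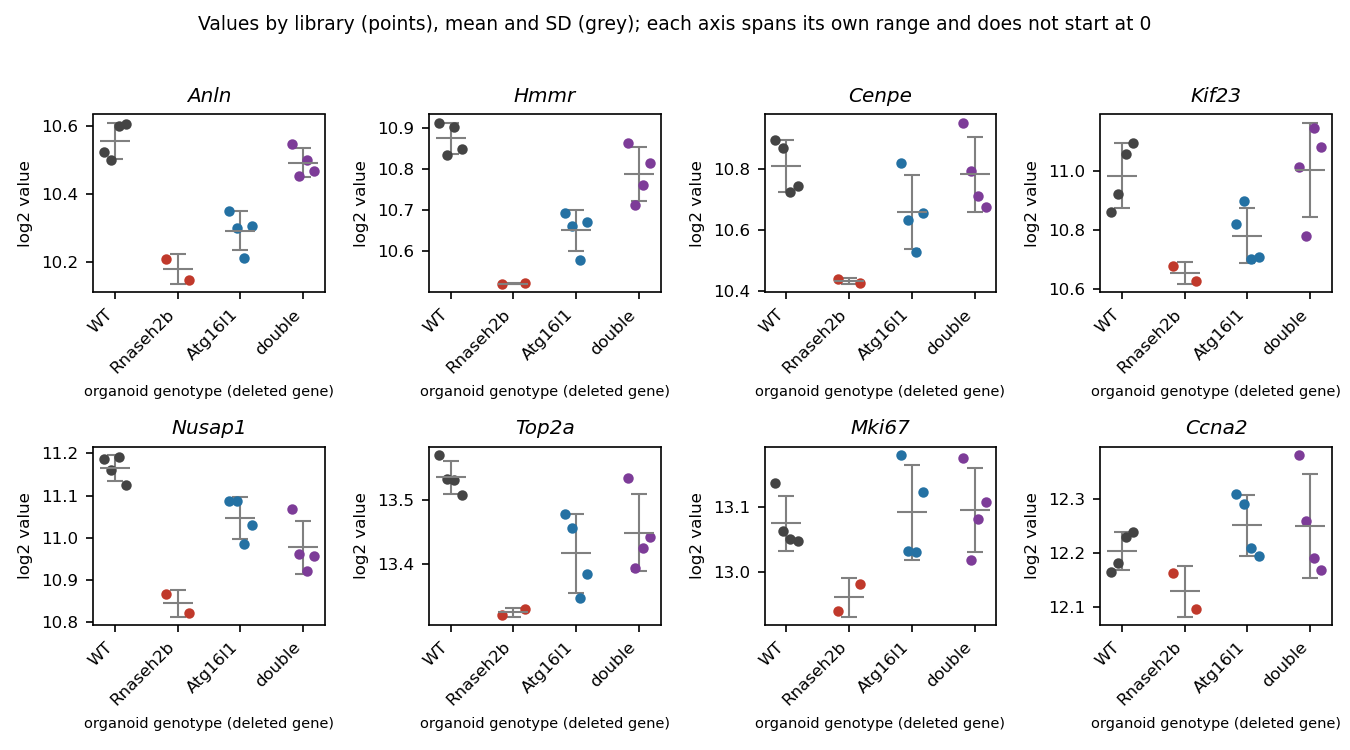
Log2 values of 8 of the genes in each library, with the mean and SD of each genotype, on axes that do not start at 0. Anln, Hmmr, Cenpe, Kif23, Nusap1 and Top2a are lowest in Rnaseh2bΔIEC, and in Mki67 and Ccna2 the Rnaseh2bΔIEC libraries lie just below the WT libraries.

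A list of 40 other mitosis genes, none of them among the 40 above, was read beside them. Of these 11 fell in Rnaseh2bΔIEC against WT, where 12.3% of all genes fell, with a median of -0.09. With library pairs as a block 1 fell (10 at an unadjusted p under 0.05), against 2.34% of all genes. Aspm, a spindle pole gene, had a difference of -0.55 ± 0.047 (SE, adjusted p = 1.4e-05), Knl1, the kinetochore scaffold, -0.35 ± 0.079 (SE, adjusted p = 0.0067), and Dlgap5, a spindle assembly gene, -0.27 ± 0.043 (SE, adjusted p = 0.00087) in limma. In Atg16l1ΔIEC 2 rose and 4 fell and in Atg16l1/Rnaseh2bΔIEC 3 rose and 2 fell, Gtse1 among them with 0.36 ± 0.054 (SE, adjusted p = 0.0017) (limma). As shares of the list these counts are below those of the table, where 8.73% rose and 10.4% fell in Atg16l1ΔIEC and 8.10% and 8.01% in Atg16l1/Rnaseh2bΔIEC. Against Rnaseh2bΔIEC, 13 rose in Atg16l1/Rnaseh2bΔIEC, against 11.1% of all genes, with a median of 0.10, and 1 rose with library pairs as a block, against 1.51% of all genes. The interaction was positive for 12 and negative for 1, with 0.66 ± 0.061 (SE, adjusted p = 1.7e-05) for Aspm in limma. In either direction the 13 called are 32.5% of the list, against 35.1% of all genes. By direction, 2180 of all 12802 genes were positive and 2319 (18.1%) negative. The share of the list was thus above that of all genes for positive interactions and below it for negative ones. With library pairs as a block 1 was called, positive (11 at an unadjusted p under 0.05 by limma), where 679 of all genes were positive and 874 negative.

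Genes of the earlier steps of the cycle were read from a list of 30. Of the 30 G1/S and replication genes 5 rose in Rnaseh2bΔIEC against WT, where 14.4% of all genes rose, so the count is near that of the table. The median of the list was 0.14, and 27 of the 30 differences were above 0. Ccne1, which encodes cyclin E, had a difference of 0.48 ± 0.086 (SE, adjusted p = 0.0018), Ccnd1, which encodes a D-type cyclin, 0.45 ± 0.096 (SE, adjusted p = 0.0047), and Rrm2, a subunit of ribonucleotide reductase, 0.32 ± 0.040 (SE, adjusted p = 0.00017) in limma. In Atg16l1ΔIEC 3 rose and 2 fell, against 8.73% and 10.4% of all genes. In Atg16l1/Rnaseh2bΔIEC 13 rose, against 8.10% of all genes, with a median of 0.18. With library pairs as a block 3 of the 30 rose in Rnaseh2bΔIEC, against 3.34% of all genes. In that fit 0 changed in Atg16l1ΔIEC (2 higher and 2 lower at an unadjusted p under 0.05) and 0 changed in Atg16l1/Rnaseh2bΔIEC by limma (14 higher at an unadjusted p under 0.05), where 0.281% of all genes rose. Without the block, Atg16l1/Rnaseh2bΔIEC and Rnaseh2bΔIEC differed for 0 of the 30 by limma (1 higher and 1 lower at an unadjusted p under 0.05). Of all genes 11.1% rose and 14.4% fell in Atg16l1/Rnaseh2bΔIEC in that comparison. The difference between this list and the mitosis genes was not tested.

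Of 23 activators and repressors of the mitotic programme 1 rose and 4 fell in Rnaseh2bΔIEC, 4 rose and 3 fell in Atg16l1ΔIEC and 5 rose and 2 fell in Atg16l1/Rnaseh2bΔIEC, each against WT. Of all genes 14.4% rose and 12.3% fell in Rnaseh2bΔIEC, 8.73% and 10.4% in Atg16l1ΔIEC and 8.10% and 8.01% in Atg16l1/Rnaseh2bΔIEC. With library pairs as a block 1 of the 23 rose and 1 fell in Rnaseh2bΔIEC, against 3.34% and 2.34% of all genes. In that fit 1 fell in Atg16l1ΔIEC, against 1.88% of all genes. It changed 0 in Atg16l1/Rnaseh2bΔIEC by limma (4 higher and 1 lower at an unadjusted p under 0.05), where 0.281% of all genes rose and 0.383% fell. E2f2, an E2F family activator, differed by 0.46 ± 0.075 (SE, adjusted p = 0.0011) and Nfya, a subunit of the CCAAT-binding NF-Y, by -0.36 ± 0.044 (SE, adjusted p = 0.00016) in Rnaseh2bΔIEC (limma). In Atg16l1ΔIEC Nfya differed by -0.35 ± 0.036 (SE, adjusted p = 5.2e-05) in limma. The interaction was -0.79 ± 0.097 (SE, adjusted p = 0.00011) for E2f2 and 0.58 ± 0.056 (SE, adjusted p = 2.6e-05) for Nfya in limma. Foxm1 and Mybl2, the transcription activators of G2 and M phase genes, were looked up after the values were seen. Foxm1 differed by -0.11 and Mybl2 by 0.11 in Rnaseh2bΔIEC against WT, and neither passed the test. Of 14 tested inhibitors of the cycle 1 rose and 2 fell in Rnaseh2bΔIEC, 4 fell in Atg16l1ΔIEC and 1 rose and 4 fell in Atg16l1/Rnaseh2bΔIEC, to be read against the same shares of all genes. In the fit with library pairs 1 of the 14 rose in Atg16l1/Rnaseh2bΔIEC, against 0.281% of all genes. Limma called 0 with the block in Rnaseh2bΔIEC and Atg16l1ΔIEC (3 and 4 at an unadjusted p under 0.05), where 2.34% and 1.88% of all genes fell. Ccng1, a p53 target, rose in Rnaseh2bΔIEC by 0.28 ± 0.078 (SE, adjusted p = 0.018) and in Atg16l1/Rnaseh2bΔIEC by 0.41 ± 0.064 (SE, adjusted p = 0.0021), and Cdkn1a, which encodes p21, differed in Atg16l1ΔIEC by -0.33 ± 0.083 (SE, adjusted p = 0.016) (limma).

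**Figure D5:**
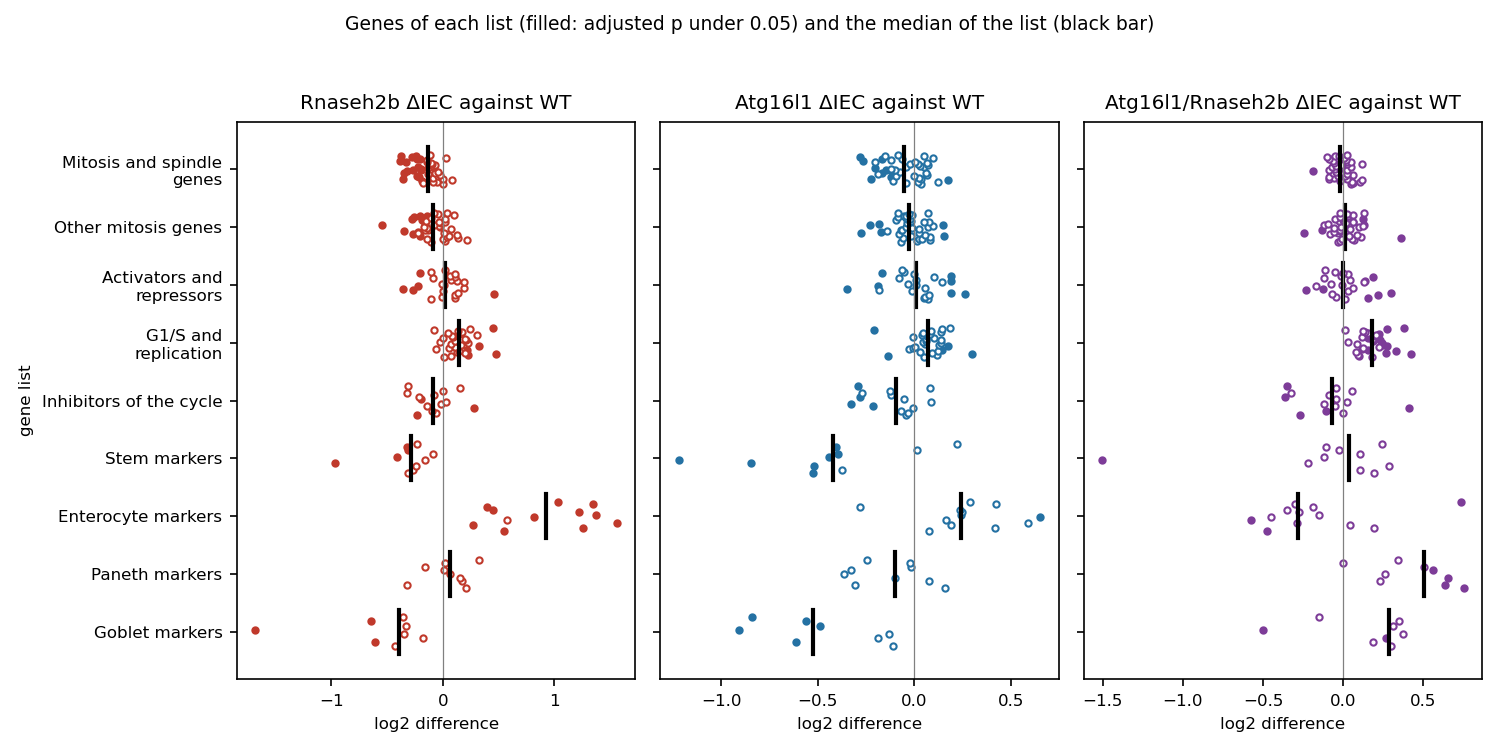
Points give the log2 difference of each gene of 9 lists in 3 comparisons, filled where the limma adjusted p was under 0.05, and black bars the median of the list, on axes of different range. In Rnaseh2bΔIEC against WT the medians of both mitosis lists lie below 0, while that of the G1/S and replication list lies at 0.14.

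Markers of the cell types of the gut were looked at in the same comparisons. The epithelial markers were present in every library (most abundant Krt19), and of 12 stromal or immune markers 4 passed the filter, with Vim the most abundant, while Col1a1, Col1a2, Pdgfra, Ptprc and Cd3e were below it. In Rnaseh2bΔIEC against WT 11 of 12 enterocyte markers rose with a median of 0.93, and 4 of 12 with library pairs as a block, where 14.4% and 3.34% of all genes rose in the 2 fits. In Atg16l1/Rnaseh2bΔIEC against Rnaseh2bΔIEC 10 fell with a median of -1.11, and 8 with the block, against 14.4% and 3.90% of all genes. Of 10 stem cell markers 4 fell in Rnaseh2bΔIEC and 7 fell in Atg16l1ΔIEC, and 2 and 3 with the block. Of all genes 12.3% and 10.4% fell, and 2.34% and 1.88% with the block. In Atg16l1/Rnaseh2bΔIEC against WT 1 fell, and 0 with the block in limma (1 higher and 1 lower at an unadjusted p under 0.05), against 8.01% and 0.383% of all genes. Their summed log2 level, led by Slc12a2, was 15.80, 15.82, 15.71 and 15.73 in WT libraries 1 to 4, 15.48 and 15.42 in Rnaseh2bΔIEC, 15.46, 15.46, 15.24 and 15.28 in Atg16l1ΔIEC and 15.87, 15.62, 15.67 and 15.67 in Atg16l1/Rnaseh2bΔIEC. Both Rnaseh2bΔIEC libraries and all Atg16l1ΔIEC libraries were below every WT library.

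Of 8 goblet cell markers 3 fell in Rnaseh2bΔIEC and 5 fell in Atg16l1ΔIEC against WT, and 2 and 2 with library pairs as a block, to be read against the shares of all genes given for the stem cell markers. In Atg16l1/Rnaseh2bΔIEC 7 of the 8 rose against Rnaseh2bΔIEC and 8 of 8 against Atg16l1ΔIEC, and 5 and 3 with the block, where 11.1% and 12.6% of all genes rose, and 1.51% and 1.91% with the block. Of the stem cell markers 7 of 10 rose in Atg16l1/Rnaseh2bΔIEC against Atg16l1ΔIEC and 4 with the block. Of the enterocyte markers 5 of 12 fell there, against 12.5% of all genes. With the block 1 of them fell, against 233 of all 12802 genes. The summed level of the goblet cell markers, led by Fcgbp, was 16.17 ± 0.28 in WT, 15.61 ± 0.11 in Rnaseh2bΔIEC, 15.65 ± 0.14 in Atg16l1ΔIEC and 16.47 ± 0.11 in Atg16l1/Rnaseh2bΔIEC (SD, n = 4, 2, 4 and 4 libraries). Of 9 tested Paneth cell markers 4 rose in Atg16l1/Rnaseh2bΔIEC against WT, where 8.10% of all genes rose. With the block, where 0.281% of all genes rose, limma called 0 of these markers (5 higher at an unadjusted p under 0.05). Their summed level, led by Itln1, was 15.04 ± 0.06 in WT, 14.86 ± 0.18 in Rnaseh2bΔIEC, 14.79 ± 0.34 in Atg16l1ΔIEC and 15.61 ± 0.18 in Atg16l1/Rnaseh2bΔIEC, and Defa5 was not analysed here. Of 9 enteroendocrine markers, led by Chgb, 5 rose in Atg16l1/Rnaseh2bΔIEC against Rnaseh2bΔIEC and 2 with the block, against 11.1% and 1.51% of all genes. Of 4 tested tuft cell markers 3 fell in Rnaseh2bΔIEC against WT and 1 with the block, against 12.3% and 2.34% of all genes, with Gfi1b and Il25 below the filter. The part of the cell types in the differences of the mitosis genes was not tested.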

How the data were processed

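Total RNA of organoids was made into stranded mRNA libraries and sequenced as single short reads. Per the study's methods, cutadapt removed adapters, TopHat2 placed reads on GRCm38, HTSeq counted them per gene and DESeq2 was run, with versions not given in the sources used here. The authors deposited 1 table of log2 values for 18781 genes and 14 libraries, whose transformation is not named. Low genes vary little in it, with a median SD of 0.017 at means of 0 to 1, 0.151 at 6 to 7 and 0.101 at 9 to 10. Differences of low genes may therefore come out too small, which was not tested. Of its columns 0 were left unmapped. Symbols and gene coordinates came from GENCODE M21 (99.7% matched).

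Genes were kept at a mean log2 value of 3.32 or more (10 on the linear scale) and fitted with limma 3.58.1 in R 4.3.3, as lmFit with 1 mean per genotype over 14 libraries and no covariate, then contrasts and eBayes with a trend on the mean, with Benjamini-Hochberg adjustment over 12802 genes. The code was tested on simulated data. The 40 genes, the lists and the tests were chosen with earlier results of these data known. Values in every library are given for Mki67, the member of each role group with the highest mean, and the 3 largest called differences of a comparison. From the other lists up to 3 were named. The summed level of the enterocyte markers is not reported here. The design allowed for linear values, but log2 values were found and tested as deposited. Alternatives were filters, centring, pseudocounts, lane, library pairs, the replicate number, a stricter threshold and leaving out each library, and a correction for transcript length was added after seeing the data. Tables were read with Python 3.11.15, pandas 2.3.3 and numpy 2.4.6, and figures drawn with matplotlib 3.10.9.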

Additional observations from a re-analysis of the deposited data

Results flagged for a closer look

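In 6 groups of 4 libraries 1 library stood far from the other 3, by the gap to its nearest neighbour as a share of the range. They were Ccnb2 (0.8293) and Ttk (0.9164) in WT library 2, Mki67 (0.8326) in WT library 1, Atg16l1 (0.8898) in WT library 2, Ttk (0.8814) in Atg16l1/Rnaseh2bΔIEC library 1, and the median of the 40 mitosis genes (0.8354) in Atg16l1/Rnaseh2bΔIEC library 1. Of 129 groups examined about 6.45 would pass this limit by chance if libraries were independent, and the 6 flagged do not exceed that number. Libraries 1 and 2, and 3 and 4, varied together, so the number is a rough guide. Atg16l1/Rnaseh2bΔIEC library 1 held the highest value of 14 libraries for 17 of the 40 genes.

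By limma 21 of the 40 genes had an interaction of the 2 deletions, all positive. With library pairs as a random block 7 had one, all positive, where 12.1% of all genes did, 679 positive and 874 negative. With pairs averaged limma called 0 of the 40 (14 at an unadjusted p under 0.05) and 0 of all 12802 genes. Atg16l1/Rnaseh2bΔIEC libraries held more Rnaseh2b and more Atg16l1 message than the single knockouts, and the part of this in the interaction was not tested. The interactions on the log2 scale were Anln 0.58, Kif23 0.55, Cenpe 0.50, Hmmr 0.49, Kif14 0.45, Cenpf 0.45, Tpx2 0.39, Kif20b 0.34, Ndc80 0.34, Ect2 0.31, Bub1b 0.31, Kif20a 0.28, Ttk 0.28, Kif11 0.28, Aurka 0.26, Nusap1 0.25, Bub1 0.25, Top2a 0.24, Plk1 0.23, Kif18b 0.23 and Prc1 0.18. Of all genes tested 35.1% had an interaction, 2180 positive and 2319 negative.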

How the results depend on the processing

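No gene of the 40 changed direction among the calls under any alternative run. With library pairs as a random block the calls were 5, 1, 0, 1, 0, 0 and 7, for Rnaseh2bΔIEC, Atg16l1ΔIEC and Atg16l1/Rnaseh2bΔIEC against WT, Atg16l1/Rnaseh2bΔIEC against Rnaseh2bΔIEC and Atg16l1ΔIEC, Rnaseh2bΔIEC against Atg16l1ΔIEC and the interaction. With pairs averaged limma called 0 of the 40 in all 7 (14, 7, 1, 9, 4, 3 and 14 at an unadjusted p under 0.05), and 0, 1, 0, 0, 0, 2 and 0 of all 12802 genes. With lane as a covariate the medians were -0.2101 (Rnaseh2bΔIEC), -0.1186 (Atg16l1ΔIEC) and 0.2747 (interaction), and the calls 1 (Atg16l1/Rnaseh2bΔIEC against WT), 8 (Rnaseh2bΔIEC against Atg16l1ΔIEC) and 12 (interaction). In lane 2 alone Atg16l1/Rnaseh2bΔIEC against Atg16l1ΔIEC and Rnaseh2bΔIEC against Atg16l1ΔIEC gave 3 each. At an adjusted p of 0.01 the limma calls were 4 (Atg16l1ΔIEC) and 1 (Atg16l1/Rnaseh2bΔIEC) against WT, 6 for Atg16l1/Rnaseh2bΔIEC against Rnaseh2bΔIEC, 1 against Atg16l1ΔIEC, 0 for Rnaseh2bΔIEC against Atg16l1ΔIEC and 12 for the interaction. With only the groups compared in the fit, Atg16l1/Rnaseh2bΔIEC against WT, Rnaseh2bΔIEC and Atg16l1ΔIEC gave 1, 8 and 2, and Rnaseh2bΔIEC against Atg16l1ΔIEC gave 3. With no filter on low values Atg16l1/Rnaseh2bΔIEC against WT gave 1 and Rnaseh2bΔIEC against Atg16l1ΔIEC gave 3. Atg16l1/Rnaseh2bΔIEC against WT also gave 1 with values centred on the median, and with the trend with transcript length removed, an alternative added after seeing the data.

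Libraries of the same number in different genotypes did not deviate together (r from -0.502 to 0.442), so the numbers name libraries and do not pair them. With the replicate number as a block the median in Rnaseh2bΔIEC against WT was -0.1855, and Atg16l1/Rnaseh2bΔIEC against Rnaseh2bΔIEC gave 23 calls.

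Leaving out each library in turn, where a lone Rnaseh2bΔIEC library is taken to vary like the other genotypes, gave these ranges. For Rnaseh2bΔIEC against WT 6 to 18 genes were called and the median ran from -0.1647 to -0.1115. For Atg16l1ΔIEC against WT it was 5 to 12 calls and -0.0709 to -0.0369. Atg16l1/Rnaseh2bΔIEC against WT gave 1 to 2 calls and -0.0502 to -0.0026, against Rnaseh2bΔIEC 3 to 18 calls and 0.1075 to 0.1548, and against Atg16l1ΔIEC 3 to 9 calls and -0.0004 to 0.062. Rnaseh2bΔIEC against Atg16l1ΔIEC gave 0 to 6 calls and -0.1239 to -0.0906, and the interaction 13 to 22 calls and 0.1704 to 0.2446. Calls over all 12802 genes varied too, for example from 1659 to 2870 for Atg16l1ΔIEC against WT. Depth is unknown, and no counts were analysed here.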

Other observations

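The log2 differences of the 40 mitosis genes were set beside the summed exon length of each gene. Spearman's rho across the 40 genes was -0.457, -0.517 and -0.341 in Rnaseh2bΔIEC, Atg16l1ΔIEC and Atg16l1/Rnaseh2bΔIEC, each against WT, 0.328 and 0.364 for Atg16l1/Rnaseh2bΔIEC against Rnaseh2bΔIEC and Atg16l1ΔIEC, -0.041 for Rnaseh2bΔIEC against Atg16l1ΔIEC and 0.468 for the interaction of the 2 deletions. Across the 12783 genes with a length rho was -0.219, -0.218, -0.069, 0.173, 0.143, -0.083 and 0.223 in the same order. The points share libraries and genes are not independent replicates, so these are descriptions. With the trend with length removed, 16 of the 17 genes called in Rnaseh2bΔIEC and all 21 of the interaction were called again. Atg16l1ΔIEC and Atg16l1/Rnaseh2bΔIEC against WT kept 8 of 10 and 1 of 2 calls. Atg16l1/Rnaseh2bΔIEC kept 13 of 15 against Rnaseh2bΔIEC and 6 of 8 against Atg16l1ΔIEC. Rnaseh2bΔIEC against Atg16l1ΔIEC kept 5 of 5. In that fit 1419 of all 12783 genes fell in Rnaseh2bΔIEC, and 4237 had an interaction, 1983 of them positive. The cause of the relation with length was not tested.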
